A study of Camelus dromedarius with 30 samples.

Results

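The genes described here are 40 of the 22444 genes in a count table of dromedary camel kidney RNA. They encode proteins that bind fatty acids, activate them with coenzyme A, oxidise them in mitochondria or peroxisomes, build peroxisomes or oxidise aldehydes. They were taken by name, from the symbols that begin with ACAD, ACOX, ACSL, ACSM, ACSS, ACOT, CPT, HADH, ECH, ECI, EHHADH, PEX, FABP or ALDH in the study's lists of changed transcripts, changed proteins and their overlap. Of the 40 genes, 15 stood in a list of transcripts that the study had chosen on these libraries, and 25 only in the list of proteins. The list of transcripts changed in medulla between rehydration and dehydration was not analysed here. Some of the 25 may therefore stand in it, and any genes of these names that stand only there are missing from the 40. The lists name a small share of the camel's genes, so the 40 are not all the genes of these families.

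Cortex and medulla were taken from the kidneys of 15 male dromedaries (Camelus dromedarius) aged 4 to 5 years, all fed alfalfa hay, with 5 animals in each condition. Control camels drank freely, dehydrated camels had food but no water for 20 days, and rehydrated camels went through the same 20 days and then drank freely for 3 days. Messenger RNA was sequenced from 30 libraries in 6 groups of 5, by the labels 1 for each tissue of each animal. All conditions shared the same feed and sex.

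The kidney oxidises fatty acids heavily, above all in the proximal tubule, whose cells lie mainly in the cortex and reabsorb most of the filtered solute. A fatty acid is bound in the cytosol, activated to an acyl-CoA, passed into the mitochondrion through the carnitine shuttle and shortened by repeated rounds of dehydrogenation, hydration, oxidation and thiolysis. Peroxisomes, which import their enzymes with the help of peroxins, shorten very long and branched chains, and aldehyde dehydrogenases turn reactive aldehydes into acids, among them retinaldehyde into retinoic acid.

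Libraries held between 12634346 and 20005136 counted read pairs. As a check of the labelled tissues, the summed level of the proximal tubule markers that had a symbol (6 of 18) was 2452 to 5115 CPM (counts scaled by library size) in control cortex and 303 to 1329 CPM in control medulla, without overlap, and that of the thick ascending limb markers UMOD and CLDN19 was 2797 to 4457 and 14359 to 19864 CPM. The 1 podocyte marker with a symbol of 5, SYNPO, was 0.887 to 3.4 CPM in control cortex and 6.26 to 12.6 CPM in control medulla, higher in the tissue that holds no glomeruli. The labels give no batch, and the RNA integrity of single libraries was not analysed here. The study reports a lower mean RNA integrity in cortex than in medulla in each condition. The part of RNA integrity in the differences between tissues was not tested. These are bulk samples, in which fewer cells of a type and less RNA per cell cannot be told apart.

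Levels differed widely among the genes. Per kilobase of summed exon length, the mean level in control cortex was highest for ECHS1 at 2802 CPM per kb, followed by ECH1 at 619, ACADVL at 560.1, ACADM at 513 and ACADS at 354 CPM per kb, all enzymes of mitochondrial beta-oxidation. In control medulla the order was led by FABP3 at 544 CPM per kb, followed by ECHS1 at 379, ACSS1 at 213 and ACADM at 206 CPM per kb. The lowest tested levels in control cortex were 1.56 CPM per kb for ACSL4, 1.63 for FABP4 and 2.21 for ACOT11. FABP6, which encodes an intestinal bile acid binding protein, had 0 read pairs in every control cortex library, 0 to 16 in dehydrated cortex and at most 10 in any medulla library. It did not pass the filter on low counts, so 39 of the 40 genes were tested; a count of 0 allows up to 3 read pairs, or 0.218 to 0.296 CPM in the control cortex libraries.

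Between conditions, 12 of the 39 tested genes changed in at least 1 of 6 comparisons (edgeR quasi-likelihood test, Benjamini-Hochberg adjusted over all 15376 tested genes, adjusted p under 0.05). The share of all tested genes called in at least 1 of the 6 was not counted, and shares are given below for single comparisons. All 12 came from the study's transcript lists, and none of the 24 tested genes found in the protein list alone passed. Since the study chose the transcript lists on these libraries, their counts and directions are not independent evidence. The 7 calls in dehydrated against control camels were all lower, and 8 of the 9 calls in rehydrated against dehydrated camels were higher. The comparisons within a tissue share libraries, so a gene that is low in the dehydrated group enters 2 of them with the same 5 values.

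In the cortex, 2 genes were lower after dehydration than in controls, where 1.17% of all tested genes were lower, 1.27% higher and 2.45% changed in either direction. The median log2 fold change of the 39 genes was -0.32, against 0.00 over all tested genes, and 29 of the 39 had a fitted value below 0. In rehydrated against control cortex 0 genes passed, with 0.052% of all tested genes higher, 0.0325% lower and 0.0845% changed; at an unadjusted p under 0.05 there were 5 genes (2 higher and 3 lower), and DESeq2 also called 0. In rehydrated against dehydrated cortex 4 genes were higher, against 1.07% of all tested genes higher, 1.24% lower and 2.32% changed. The median of the 39 genes was 0.22 and that of all tested genes 0.03. Groups whose libraries did not overlap were found for 1 gene higher and 2 lower in dehydration against control (5.53% of all tested genes), 0 in rehydration against control (1.08%) and 4 higher and 1 lower in rehydration against dehydration (4.36%).

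In the medulla, 5 genes were lower after dehydration than in controls, against 1.16% of all tested genes lower, 0.527% higher and 1.68% changed. The median of the 39 genes was -0.11, against 0.01 over all tested genes. In rehydrated against control medulla 1 gene was lower, against 0.202% of all tested genes lower, 0.611% higher and 0.813% changed. In rehydrated against dehydrated medulla 4 genes were higher and 1 was lower, against 2.24% and 1.43% of all tested genes and 3.67% changed. The medians were 0.10 for the 39 genes and 0.00 for all tested genes. Groups did not overlap for 1 gene higher and 4 lower in dehydration against control (3.79% of all tested genes), 0 higher and 2 lower in rehydration against control (2.79%) and 3 higher and 1 lower in rehydration against dehydration (4.75%). Whether a response differed between the tissues was tested as an interaction: for the dehydration response 0 of the 39 genes passed (0.0455% of all tested genes, 0.0065% higher and 0.039% lower; 4 genes at an unadjusted p under 0.05, and 1, ACADVL, with DESeq2), and for the rehydration response 0 passed (0.0% of all tested genes; 2 genes at an unadjusted p under 0.05, and 0 with DESeq2).

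**Figure D1:**
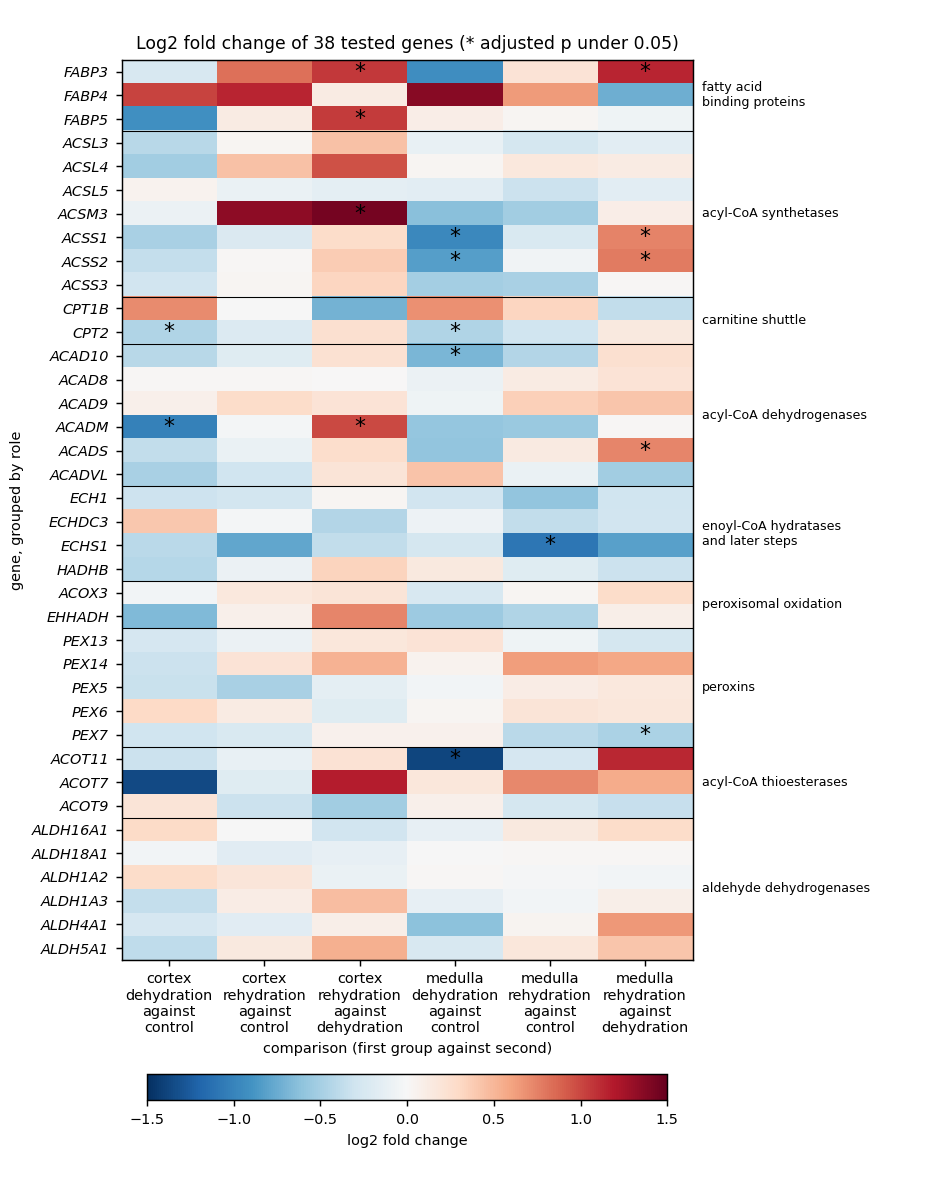
Log2 fold change (colour, blue lower and red higher in the first group named) of 38 tested genes in the 6 comparisons of conditions, with genes in rows grouped by role and an asterisk where the adjusted p was under 0.05. The asterisks in both columns of dehydration against control lie on blue cells, and those of rehydration against dehydration on red cells apart from PEX7.

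Some sums of cell type markers did not overlap between conditions in cortex, while in medulla all sums overlapped and only single markers passed. The marker symbols come from the study's own lists of changed transcripts and proteins, so the matched markers are not a neutral sample. The summed level of the 6 proximal tubule markers (SLC7A7, SLC13A3, SLC22A8, SLC3A1, GATM and MIOX, none of them at 0) was 2452 to 5115 CPM in control, 1383 to 2291 in dehydrated and 3938 to 6047 in rehydrated cortex, so every dehydrated library lay below every control and every rehydrated one. Of the 6 markers, SLC7A7 was lower in dehydrated cortex (log2 fold change -1.01, SE 0.16, adjusted p = 0.00115), and SLC13A3 and MIOX rose from dehydrated to rehydrated cortex by 1.58 and 2.46 on the log2 scale (adjusted p = 0.0335 and 0.0343). SLC3A1 had the opposite sign in dehydration against control and did not pass (log2 fold change 0.66, SE 0.24, adjusted p = 0.147). The summed level of the 2 thick ascending limb markers of 6 was 2797 to 4457 CPM in control, 4551 to 7473 in dehydrated and 2634 to 4965 in rehydrated cortex, and that of the 3 endothelial markers of 8 was 208 to 247, 334 to 417 and 193 to 258 CPM. The thick ascending limb sum was nearly all UMOD (log2 fold change 0.73, SE 0.23, adjusted p = 0.0843 in dehydration against control), while CLDN19 gave 0.20 on the log2 scale (adjusted p = 0.877). The 3 distal tubule markers of 5 summed to 689 to 2341 CPM in control, 502 to 863 in dehydrated and 632 to 2499 in rehydrated cortex, and of them SLC8A1 fell (log2 fold change -2.59, SE 0.47, adjusted p = 0.00223) and PVALB rose (log2 fold change 2.21, SE 0.38, adjusted p = 0.00156) with dehydration. The collecting duct sum (3 of 9) overlapped between conditions, with AQP3 higher in dehydrated than control cortex (log2 fold change 2.36, SE 0.55, adjusted p = 0.0166).

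In the medulla the proximal tubule sums of the conditions overlapped, at 303 to 1329 CPM in control, 284 to 796 in dehydrated and 479 to 985 in rehydrated camels. Single markers moved there too: SLC13A3 was lower in dehydrated than control medulla (log2 fold change -1.54, SE 0.41, adjusted p = 0.0491), MIOX had a log2 fold change of -2.31 (adjusted p = 0.0657), and the median over the 6 markers was -1.27, against -1.04 in cortex. ATP6V1B1, a proton pump subunit of intercalated cells, was lower in dehydrated than control medulla (log2 fold change -0.82, SE 0.16, adjusted p = 0.00427) and rose from dehydration to rehydration (log2 fold change 1.07, SE 0.16, adjusted p = 0.000201). The other collecting duct markers, AQP2 and AQP3, went the other way with dehydration in medulla and did not pass. Mean AQP2 was 286 CPM in control and 502 in dehydrated medulla, and mean AQP3 was 66.4 and 171 CPM. The median log2 fold change of the collecting duct markers there was 0.81. COL1A1 of the fibroblast markers rose from dehydration to rehydration (log2 fold change 1.20, SE 0.33, adjusted p = 0.0415). The part of these markers in the results below was not tested.

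**Figure D2:**
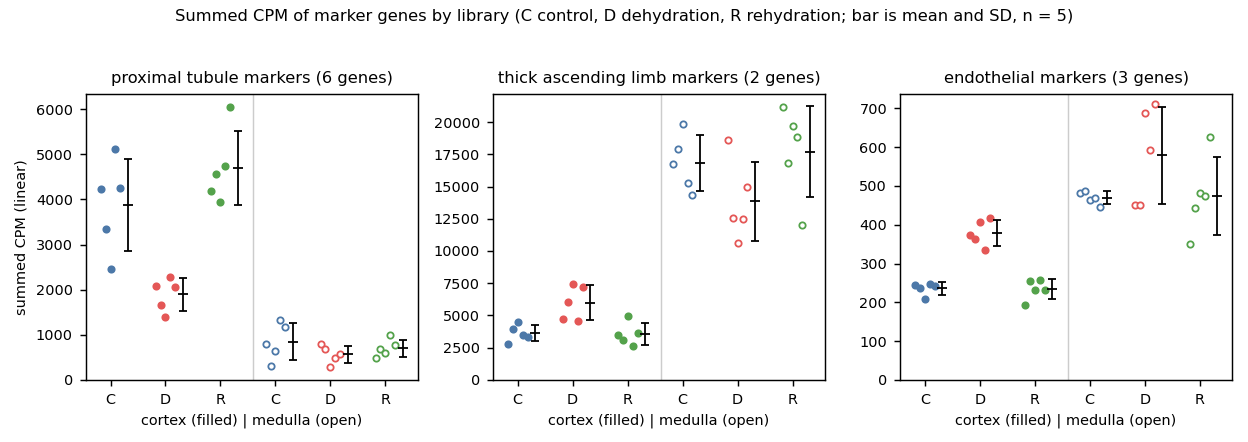
Summed CPM (linear axes from 0) of the proximal tubule, thick ascending limb and endothelial markers in each library, with cortex filled and medulla open, grouped as control, dehydration and rehydration; bars give the mean and SD of 5 libraries. The proximal tubule sum of the dehydrated cortex libraries, 1383 to 2291 CPM, lies below those of the control and rehydrated cortex libraries.

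Among the 4 fatty acid binding proteins, the changes were rises from dehydration to rehydration. FABP3 (heart-type fatty acid binding protein; ENSCDRG00005016894, chromosome 13, 22606928-22614258, minus strand of the CamDro2 assembly) carries long-chain fatty acids through the cytosol. In cortex it was 119, 129.9, 138, 188 and 167 CPM in the control libraries, 92.3, 155, 134, 143 and 107 in the dehydrated and 297, 231, 354, 274 and 156 in the rehydrated ones. In medulla it was 451, 398, 601, 271 and 286 CPM in the control, 206, 152, 256, 185 and 249.8 in the dehydrated and 322, 378, 733, 603 and 272 in the rehydrated libraries. In both tissues every rehydrated library lay above every dehydrated one, and in medulla so did every control library. FABP3 rose 2.08-fold in cortex (log2 fold change 1.06, SE 0.25, adjusted p = 0.0236) and 2.20-fold in medulla (log2 fold change 1.14, SE 0.25, adjusted p = 0.0129). Its lower level in dehydrated than control medulla just missed the threshold (log2 fold change -0.94, SE 0.25, adjusted p = 0.0512) and passed with RLE size factors and with DESeq2 (adjusted p = 0.047 and 0.0185). The cortex call was lost when dehydrated replicates 1, 3 or 5 or rehydrated replicate 3 was left out (adjusted p 0.0502 to 0.0708), and the medulla call held whichever of the 10 libraries was left out. MB, the 1 striated muscle marker with a symbol of 6, had 0 read pairs in every library.

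FABP5 (epidermal-type fatty acid binding protein; ENSCDRG00005016275, chromosome 29, 19917455-19922355, plus strand) differed in cortex. It was 61.2, 57.7, 114, 142 and 169.7 CPM in control, 66.0, 40.4, 59.0, 68.5 and 53.5 in dehydrated and 86.1, 149.9, 81.1, 112 and 165 in rehydrated cortex. Every dehydrated library lay below every rehydrated one, while controls 1 and 2 lay within the dehydrated range. The rise from dehydration to rehydration passed (log2 fold change 1.05, SE 0.29, adjusted p = 0.0463), and the lower level in dehydrated than control cortex did not (log2 fold change -0.92, SE 0.29, adjusted p = 0.0852), though DESeq2 called it (adjusted p = 0.0304). In medulla the ranges overlapped, at 73.1 to 146, 68.8 to 169 and 81.1 to 144 CPM in control, dehydrated and rehydrated camels. The call was lost when dehydrated replicates 1, 2, 3, 4 or 5 or rehydrated replicates 2, 4 or 5 was left out (adjusted p 0.0621 to 0.132). Over alternative settings other than the replicate block the adjusted p of the cortex rise ran from 0.0131 to 0.0657. The call was also lost without the filter, with the earlier quasi-likelihood method and with cortex fitted alone. FABP4, the adipocyte form, was 0.296 to 1.96 CPM in control cortex and 1.83 to 9.14 CPM in dehydrated medulla, and its highest fitted log2 fold change between conditions, 1.37 in dehydrated against control medulla, had an SE of 0.56 and an adjusted p of 0.25. The 1 adipocyte marker with a symbol of 9, ADIPOQ, was at most 1.79 CPM in any library, the highest in a dehydrated medulla library.

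Of the 7 acyl-CoA synthetases, which join fatty acids or acetate to coenzyme A, the 2 that use acetate fell in dehydrated medulla and rose again after rehydration. ACSS1 (mitochondrial acetyl-CoA synthetase; ENSCDRG00005019447, chromosome 19, 753682-776804, plus strand) was 337, 436, 391, 299.8 and 381 CPM in control, 114, 194, 218, 194 and 222 in dehydrated and 401, 286, 202, 338 and 347 in rehydrated medulla. Every dehydrated library lay below every control, and rehydrated replicate 3 alone reached into the dehydrated range. ACSS1 fell by 48.9% (log2 fold change -0.97, SE 0.19, adjusted p = 0.00454) and rose 1.67-fold from dehydration to rehydration (log2 fold change 0.74, SE 0.19, adjusted p = 0.0247). In cortex the values were 199, 174, 164, 197 and 228 CPM in control, 132, 136, 170.2, 123 and 127 in dehydrated and 146, 111, 227, 151 and 197 in rehydrated camels, and dehydration against control did not pass (log2 fold change -0.48, SE 0.19, adjusted p = 0.191). The fall in medulla held whichever of the 10 libraries was left out. The rise was lost when dehydrated replicates 1 or 4 or rehydrated replicates 1 or 5 was left out (adjusted p 0.0514 to 0.101), and with medulla fitted alone the adjusted p was 0.0587 (from 0.0114 over alternatives other than the replicate block).

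ACSS2 (cytosolic acetyl-CoA synthetase; ENSCDRG00005013262, chromosome 19, 23932114-23977190, plus strand) supplies acetyl-CoA for lipid synthesis. It was 111, 80.4, 74.4, 61.4 and 50.8 CPM in control, 53.5, 31.7, 40.6, 40.9 and 45.9 in dehydrated and 53.7, 78, 84.5, 71.8 and 75.6 in rehydrated medulla. Control replicate 5 lay within the dehydrated range, the other controls above it, and every rehydrated library above every dehydrated one. ACSS2 fell by 43.8% (log2 fold change -0.83, SE 0.19, adjusted p = 0.017) and rose 1.71-fold from dehydration to rehydration (log2 fold change 0.77, SE 0.19, adjusted p = 0.0193). In cortex it was 57.4, 52.8, 42.4, 37.8 and 51.5 CPM in control, 40.1, 32.3, 36.7, 33.4 and 46.6 in dehydrated and 66.9, 37.9, 39.3, 57.2 and 44.2 in rehydrated camels, with overlapping ranges. The fall was lost when control replicate 1 or dehydrated replicates 2, 3 or 4 was left out (adjusted p 0.0504 to 0.084) and, with medulla fitted alone, at an adjusted p of 0.0685 (from 0.00219 over alternatives other than the replicate block). The rise was lost when dehydrated replicates 2, 3 or 4 was left out (adjusted p 0.0513 to 0.0565).

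ACSM3 (a mitochondrial medium-chain acyl-CoA synthetase; ENSCDRG00005019364, chromosome 18, 11671667-11694867, plus strand) was higher in rehydrated than dehydrated cortex. It was 80.1, 90.2, 16.5, 50.1 and 48.4 CPM in control, 59.8, 25.6, 28.9, 73.0 and 80.9 in dehydrated and 92.6, 44.9, 136, 191 and 259 in rehydrated cortex. Among the widely spread rehydrated libraries, replicate 2 lay within the dehydrated range, and the other 4 lay above every dehydrated and every control library. The rise was 2.70-fold (log2 fold change 1.43, SE 0.37, adjusted p = 0.0341), and rehydrated against control cortex did not pass (log2 fold change 1.34, SE 0.37, adjusted p = 0.178). In medulla the values were 87.2, 78.8, 54.3, 77.6 and 92.5 CPM in control, 55.1, 44.0, 45.7, 66.5 and 41.1 in dehydrated and 52.5, 58.4, 39.5, 63.0 and 57.6 in rehydrated camels, and no comparison passed. The cortex call was lost when dehydrated replicates 1, 2 or 3 or rehydrated replicates 3, 4 or 5 was left out (adjusted p 0.0569 to 0.11) and with cortex fitted alone (adjusted p = 0.122, from 0.00785 over alternatives other than the replicate block). For the long-chain synthetases ACSL3, ACSL4 and ACSL5 and the short-chain ACSS3, no comparison of conditions passed, and their fitted log2 fold changes lay between -0.52 and 0.95, both those of ACSL4 in cortex.

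The carnitine shuttle was represented by CPT1B and CPT2. CPT2 (carnitine palmitoyltransferase of the inner mitochondrial membrane, which turns acylcarnitines back into acyl-CoA; ENSCDRG00005008435, chromosome 13, 40170302-40185302, plus strand) fell in both tissues. In cortex it was 143, 142, 100.3, 149.8 and 146 CPM in control, 102, 101, 95.4, 103 and 96.3 in dehydrated and 126, 111, 109.6, 122 and 121 in rehydrated camels. In medulla it was 82.4, 71.9, 81.9, 87.2 and 82.4 CPM in control, 69.9, 55.4, 56.7, 49.5 and 66.1 in dehydrated and 68.6, 66.6, 62.7, 71.8 and 59.1 in rehydrated camels. In cortex control replicate 3 lay within the dehydrated range and the other 4 controls well above it, and in medulla every dehydrated library lay below every control. CPT2 fell by 26.8% in cortex (log2 fold change -0.45, SE 0.11, adjusted p = 0.0193) and by 26.7% in medulla (log2 fold change -0.45, SE 0.11, adjusted p = 0.0254). The rehydrated libraries lay between the other groups in their means, and neither tissue passed for rehydration against dehydration (log2 fold change 0.24, SE 0.11, adjusted p = 0.273 in cortex). The cortex call was lost when control replicate 4 or dehydrated replicates 3 or 5 was left out (adjusted p 0.0534 to 0.0647). The medulla call was lost when control replicates 1, 3, 4 or 5 or dehydrated replicates 2, 3 or 4 was left out (adjusted p 0.0549 to 0.108). Over alternative settings other than the replicate block its adjusted p ran from 0.000808 to 0.106. It was also lost without the filter and with medulla fitted alone.

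CPT1B, the muscle form of the outer-membrane enzyme that makes acylcarnitines, had the opposite sign and did not pass. It was 56.7 ± 16.4 CPM (SD, n = 5) in control, 92.5 ± 17.4 in dehydrated and 56.4 ± 17.8 in rehydrated cortex, with a log2 fold change of 0.71 in dehydration against control (SE 0.22, adjusted p = 0.0862). In medulla it was 33.5 ± 5.01 CPM (SD, n = 5) in control and 54.1 ± 5.38 in dehydrated camels (log2 fold change 0.69, SE 0.22, adjusted p = 0.12). Every dehydrated medulla library lay above every control, at 45.8 to 58.5 against 30.2 to 42.3 CPM, while the cortex groups overlapped. DESeq2 called it lower in rehydrated than dehydrated cortex.

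All 6 acyl-CoA dehydrogenases, the enzymes of the opening step of each round of beta-oxidation and of related amino acid breakdown, were tested, and 3 changed. ACADM (medium-chain acyl-CoA dehydrogenase; ENSCDRG00005011717, chromosome 13, 58645576-58672984, plus strand) was 1437, 1656, 967, 1389 and 1129.6 CPM in control, 799, 588, 711, 636 and 520.0 in dehydrated and 1493, 934, 888, 1973 and 1159 in rehydrated cortex. Every dehydrated library lay below every control and every rehydrated one. ACADM fell by 50.5% (log2 fold change -1.02, SE 0.26, adjusted p = 0.0306) and rose 1.98-fold from dehydration to rehydration (log2 fold change 0.99, SE 0.26, adjusted p = 0.0388). Rehydrated against control cortex had a log2 fold change of -0.03 with a 95% interval of -0.56 to 0.50. In medulla it was 445, 262, 369.6, 760.0 and 813 CPM in control, 348, 515, 268, 309 and 329.6 in dehydrated and 298, 341, 265, 476 and 416 in rehydrated camels, with overlapping ranges and no call (log2 fold change -0.58, SE 0.26, adjusted p = 0.31 for dehydration). The fall was lost when control replicates 1, 2 or 4 or dehydrated replicates 2, 3, 4 or 5 was left out (adjusted p 0.0591 to 0.0964), and the rise when dehydrated replicates 1, 2, 3, 4 or 5 or rehydrated replicates 1 or 4 was left out (adjusted p 0.0534 to 0.118). The proximal tubule marker sum given above moved with it in cortex.

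ACADS (short-chain acyl-CoA dehydrogenase; ENSCDRG00005019139, chromosome 32, 15295627-15306690, plus strand) rose in medulla from dehydration to rehydration. It was 381, 268, 331, 357 and 334 CPM in control, 244, 263, 159.7, 160.5 and 278 in dehydrated and 399, 279, 404, 373 and 381 in rehydrated medulla. Every rehydrated library lay above every dehydrated one, and control replicate 2 lay within the dehydrated range. The rise was 1.66-fold (log2 fold change 0.73, SE 0.17, adjusted p = 0.0173), and the lower level in dehydrated than control medulla did not pass (log2 fold change -0.60, SE 0.17, adjusted p = 0.076), though DESeq2 called it (adjusted p = 0.0371). The level in cortex was 875, 715, 1079, 995 and 1014 CPM in control, 678, 722, 649, 761 and 817 in dehydrated and 613, 968, 1048, 666 and 1062 in rehydrated camels, with overlapping ranges. The call was lost when dehydrated replicates 3 or 4 or rehydrated replicate 1 was left out (adjusted p 0.0529 to 0.0595).

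ACAD10 (ENSCDRG00005006054, chromosome 32, 16360794-16396779, minus strand), a member of the acyl-CoA dehydrogenase family, fell in dehydrated medulla. It was 90.4, 72.6, 87.6, 88.5 and 110.2 CPM in control, 55.0, 62.5, 55.0, 46.6 and 60.3 in dehydrated and 71.4, 62.3, 50.5, 82.8 and 63.1 in rehydrated medulla. Every dehydrated library lay below every control, and the rehydrated libraries spanned both ranges. ACAD10 fell by 37.8% (log2 fold change -0.69, SE 0.14, adjusted p = 0.00805). The cortex values were 247, 218, 287, 306 and 340.4 CPM in control, 197, 202, 181, 268 and 203 in dehydrated and 208, 269, 274, 233 and 249.6 in rehydrated camels, and dehydration against control did not pass (log2 fold change -0.41, SE 0.14, adjusted p = 0.122). The call held whichever of the 10 libraries was left out and was lost with medulla fitted alone (adjusted p = 0.0583, from 0.00111 over alternatives other than the replicate block).

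Of the other dehydrogenases, ACADVL, which acts on very long chains in mitochondria, was 1352 ± 167 CPM (SD, n = 5) in control and 962 ± 179 in dehydrated cortex, and 339.9 ± 68.5 in control and 456 ± 83.2 in dehydrated medulla. Its log2 fold change in dehydration against control was -0.49 in cortex and 0.43 in medulla, with adjusted p of 0.12 and 0.22. DESeq2 called the fall in cortex (adjusted p = 0.0369) and a lower level in rehydrated than dehydrated medulla (adjusted p = 0.0264). The difference between the tissues was 0.92 (SE 0.23, adjusted p = 0.16), and DESeq2 called it. ACAD8, an isobutyryl-CoA dehydrogenase of valine breakdown, and ACAD9, which also serves in the assembly of respiratory complex I, did not pass in any comparison of conditions, with log2 fold changes between -0.09 (ACAD8, dehydrated against control medulla) and 0.42 (ACAD9, rehydrated against dehydrated medulla).

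Among the 4 enzymes of the later steps, only ECHS1 was called in a comparison of conditions. ECHS1 (short-chain enoyl-CoA hydratase, which adds water to the enoyl-CoA; ENSCDRG00005002150, chromosome 11, 96402-103875, minus strand) was 944, 431, 676, 983 and 485 CPM in control, 719, 789.6, 370.1, 364 and 690.2 in dehydrated and 184, 319, 321, 455 and 387 in rehydrated medulla. Rehydrated replicate 4 lay within the control range and the other 4 rehydrated libraries below it. ECHS1 was lower by 52.7% in rehydrated than control medulla (log2 fold change -1.08, SE 0.27, adjusted p = 0.0493). Cortex libraries held 4739, 5319, 5244, 6876 and 3811 CPM in control, 3989.8, 3919, 2724, 5282 and 3671 in dehydrated and 2482, 2864, 3873, 2399 and 3535 in rehydrated camels, and rehydration against control did not pass (log2 fold change -0.78, SE 0.27, adjusted p = 0.312). The call was lost when control replicates 1, 3, 4 or 5 or rehydrated replicates 1, 2, 3 or 5 was left out (adjusted p 0.0578 to 0.163). Over alternative settings other than the replicate block its adjusted p ran from 0.0123 to 0.0962. It was also lost with RLE size factors, with the earlier quasi-likelihood method and with medulla fitted alone. ECH1, an isomerase for unsaturated chains, ECHDC3 and HADHB, the thiolase subunit of the mitochondrial trifunctional protein, did not pass; the lowest fitted value was -0.59 for ECH1 in rehydrated against control medulla (SE 0.19, adjusted p = 0.126).

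The peroxisomal oxidation enzymes ACOX3 and EHHADH passed in no comparison of conditions. EHHADH, a bifunctional enzyme of peroxisomal beta-oxidation, was 264 ± 167 CPM (SD, n = 5) in control, 167 ± 66.8 in dehydrated and 277 ± 181 in rehydrated cortex. Its dehydration log2 fold change in cortex of -0.66 had a 95% interval of -1.75 to 0.43, which spans a fall by more than the change of any called gene in that comparison. ACOX3, an oxidase of branched chains, was 119 ± 17.1 CPM (SD, n = 5) in control and 116 ± 20.2 in dehydrated cortex.

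Among the 5 peroxins, PEX7 (receptor for peroxisomal enzymes with the targeting signal near their start; ENSCDRG00005015169, chromosome 8, 24663713-24736736, minus strand) was lower in rehydrated than dehydrated medulla. It was 36.9, 29.2, 39.4, 35.7 and 32.9 CPM in control, 37.1, 38.5, 33.3, 39.1 and 34.1 in dehydrated and 23.3, 24.3, 28.9, 25.8 and 28.9 in rehydrated medulla. Every rehydrated library lay below every dehydrated and every control library. PEX7 fell by 28.0% (log2 fold change -0.47, SE 0.12, adjusted p = 0.0313), and rehydrated against control medulla did not pass (log2 fold change -0.41, SE 0.13, adjusted p = 0.107), though DESeq2 called it. Its cortex level was 59.2, 60.5, 37.2, 58.8 and 47.4 CPM in control, 44.2, 46.5, 41.3, 46.9 and 36.2 in dehydrated and 43.5, 42.8, 45.2, 52.6 and 41.1 in rehydrated camels. The call was lost when dehydrated replicates 1, 2 or 4 or rehydrated replicates 1 or 2 was left out (adjusted p 0.0536 to 0.108). PEX5, the receptor for the signal at the protein's end, PEX13 and PEX14 of the docking complex and PEX6, an ATPase that recycles the receptors, did not pass, with the fitted log2 fold changes furthest from 0 at 0.63 for PEX14 in rehydrated against control medulla (adjusted p = 0.158) and -0.48 for PEX5 in rehydrated against control cortex (adjusted p = 0.444).

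Of the 3 acyl-CoA thioesterases, which split acyl-CoA into fatty acid and coenzyme A, ACOT11 (ENSCDRG00005011744, chromosome 13, 41243964-41282001, plus strand) fell in dehydrated medulla. It was 3.06, 2.22, 2.62, 3.01 and 5.05 CPM in control, 0.827, 2.49, 0.897, 1.18 and 0.687 in dehydrated and 2.73, 2.54, 2.00, 2.27 and 3.73 in rehydrated medulla. Dehydrated replicate 2 lay within the control range and the other 4 dehydrated libraries below every control and every rehydrated library. ACOT11 fell by 61.6% (log2 fold change -1.38, SE 0.34, adjusted p = 0.0319). The counts behind this were low, at 16 to 61 read pairs in the dehydrated and 47 to 121 in the control libraries. Cortex values of the gene were 5.02, 5.6, 1.68, 7.15 and 3.52 CPM in control, 3.43, 3.55, 5.73, 2.91 and 2.71 in dehydrated and 5.58, 4.45, 3.5, 4.71 and 3.30 in rehydrated camels. The call was lost when control replicates 1, 3 or 5 or dehydrated replicates 1, 3, 4 or 5 was left out (adjusted p 0.0544 to 0.13), and with the earlier quasi-likelihood method and with medulla fitted alone, where the adjusted p reached 0.0851 (from 0.00774 over alternatives other than the replicate block). ACOT7, a cytosolic thioesterase, was 18.9 to 61.3 CPM in control and 5.67 to 19.6 CPM in dehydrated cortex (log2 fold change -1.36, SE 0.47, adjusted p = 0.134), and the mitochondrial ACOT9 fell short of the threshold in rehydrated against dehydrated cortex (log2 fold change -0.52, SE 0.15, adjusted p = 0.0574), where DESeq2 called it.

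None of the 6 aldehyde dehydrogenases passed in a comparison of conditions. The fitted value furthest from 0 was that of ALDH4A1, a mitochondrial enzyme of proline breakdown, at 0.65 in rehydrated against dehydrated medulla (SE 0.20, adjusted p = 0.0687). ALDH4A1 was 145 ± 45.1 CPM (SD, n = 5) in control, 94.6 ± 31.4 in dehydrated and 148 ± 25.2 in rehydrated medulla. For ALDH18A1, which serves proline synthesis, and ALDH1A2, which makes retinoic acid, all 3 medulla comparisons gave log2 fold changes between -0.04 and 0.02, with a 95% interval of -0.29 to 0.33 for ALDH1A2 in dehydration against control.

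**Figure D3:**
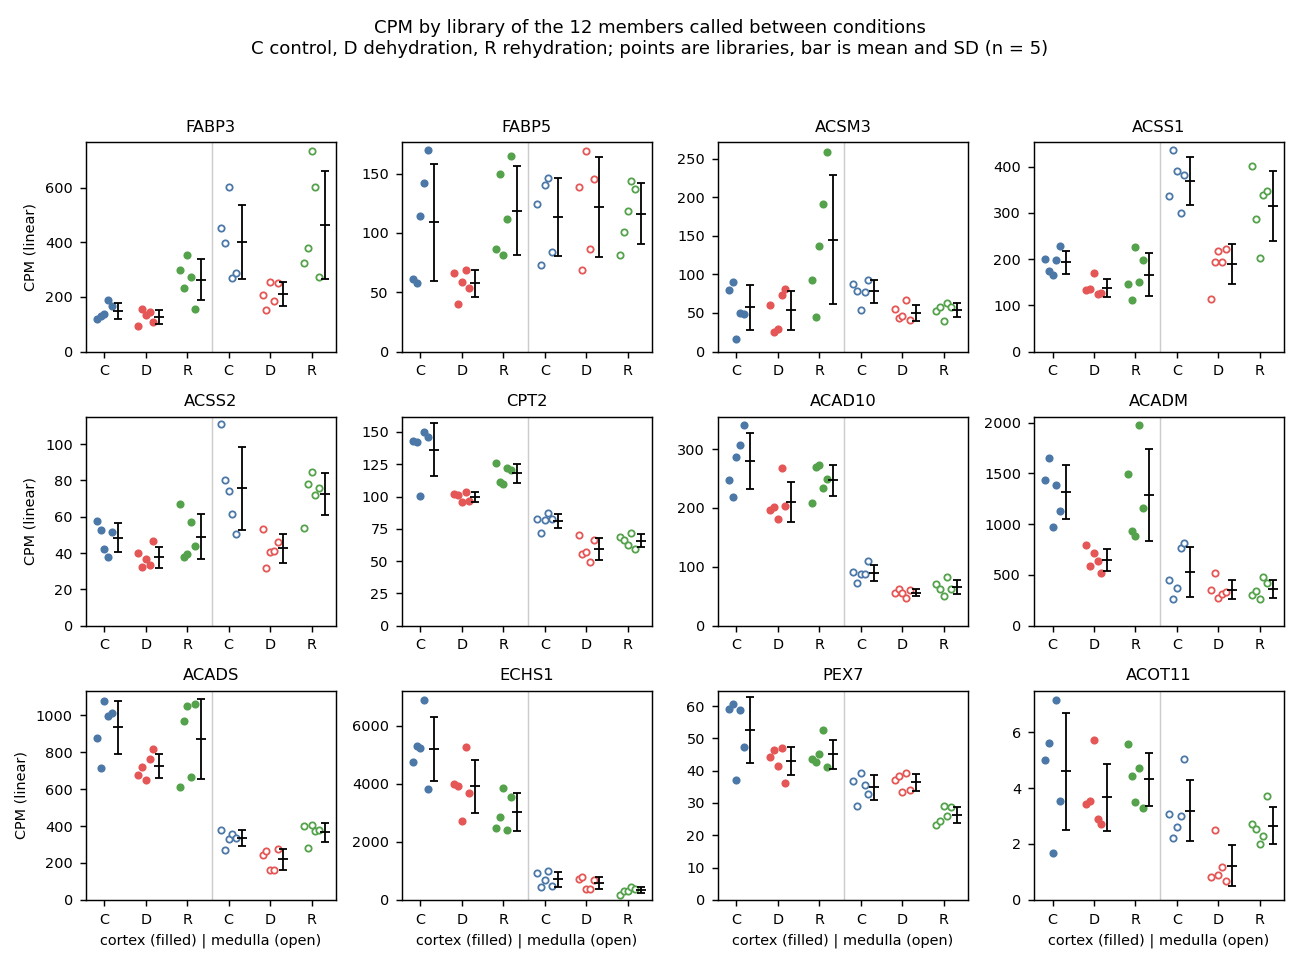
CPM (linear axes from 0) in each library of the 12 genes called in at least 1 comparison of conditions, with control (C), dehydration (D) and rehydration (R) for cortex (filled) and medulla (open); bars give the mean and SD of 5 libraries. ACADM in cortex and ACSS1, CPT2 and ACAD10 in medulla show dehydrated libraries that all lie below the controls, and ECHS1 shows the gap between the tissues.

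More of these genes differed between cortex and medulla than between conditions, as was also so over all tested genes. In control camels 20 of the 39 tested genes (51.3%) were lower and 7 (17.9%) higher in medulla than in cortex, against 28.6% and 32.2% of all tested genes and 60.9% changed. In dehydrated camels 19 were lower and 7 higher, against 31% and 34.4% of all tested genes and 65.4% changed, and in rehydrated camels 20 were lower and 7 higher, against 28.1% and 33% and 61.1%. The medians of the 39 genes were -0.52, -0.57 and -0.49, against 0.10, 0.07 and 0.10 over all tested genes. In all 3 conditions 17 genes were lower and 6 higher in medulla, 9 passed in none, and no gene was called in opposite directions. The matching shares of all tested genes over the 3 conditions together were not counted. The choice of genes did not use the contrast of medulla against cortex. The proximal tubule marker sum differed in the same direction, as given above, and its part in these results was not tested.

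The lower genes included most of those of mitochondrial oxidation. All 6 acyl-CoA dehydrogenases were lower in medulla in each condition, with log2 fold changes from -0.47 for ACAD8 to -1.99 for ACADVL in control camels. ECHS1 was 4739, 5319, 5244, 6876 and 3811 CPM in control cortex and 944, 431, 676, 983 and 485 CPM in control medulla, without overlap and 7.39-fold lower in medulla (log2 fold change -2.88, SE 0.28, adjusted p = 5.82e-09). ECH1 (ENSCDRG00005013936, chromosome 9, 2017912-2026786, minus strand) was 712, 702, 698, 861 and 898 CPM in control cortex and 201, 119, 168, 197 and 213 CPM in control medulla. Every medulla library of ECH1 lay below every cortex library (log2 fold change -2.11, SE 0.20, adjusted p = 2.85e-09). ECHS1 and ECH1 were also lower in medulla of dehydrated camels, with log2 fold changes of -2.74 and -2.08, and of rehydrated camels, with -3.19 and -2.42. ECHDC3 (-1.81 in control camels) and the short-chain synthetase ACSS3 (-1.99) were lower as well, while HADHB did not pass in any condition, with -0.36 in control camels (95% interval -0.82 to 0.09).

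CPT2 was lower in medulla in each condition, with log2 fold changes of -0.75, -0.75 and -0.84 in control, dehydrated and rehydrated camels. Among the peroxisomal genes, ACOX3 (log2 fold change -1.16), PEX5 (-1.94) and PEX6 (-1.11) were lower in medulla of control camels and in the other conditions, while EHHADH, PEX13 and PEX14 passed in none. PEX7 was lower in medulla in control (-0.60) and rehydrated (-0.78) camels and did not pass in dehydrated ones (log2 fold change -0.24, SE 0.12, adjusted p = 0.0932). ACOT7 (ENSCDRG00005006683, chromosome 13, 4328583-4419078, minus strand) was 26.5, 18.9, 19.3, 61.3 and 27.4 CPM in control cortex and 9.08, 4.98, 6.46, 6.81 and 4.30 CPM in control medulla. The groups did not overlap, and cortex replicate 4 lay far above the other cortex libraries (log2 fold change -2.28, SE 0.49, adjusted p = 0.000264). In dehydrated camels, where cortex ACOT7 was 5.67 to 19.6 CPM, the tissues overlapped and the difference did not pass (log2 fold change -0.75, SE 0.48, adjusted p = 0.174); the interaction was 1.53 with an adjusted p of 0.597.

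The genes higher in medulla had other roles. ALDH1A3 (an enzyme that makes retinoic acid from retinaldehyde; ENSCDRG00005018258, chromosome 27, 5981738-6023339, minus strand) was 26.0, 34.8, 18.9, 23.5 and 19.6 CPM in control cortex and 142, 233, 164, 156 and 131 CPM in control medulla, 6.70-fold higher (log2 fold change 2.74, SE 0.26, adjusted p = 2.53e-09). ALDH1A2 (an enzyme of the same reaction; ENSCDRG00005012276, chromosome 6, 9544165-9798451, plus strand) was 139.7, 137, 131, 129 and 128 CPM in control cortex and 469.9, 466, 493, 366 and 426 CPM in control medulla, 3.34-fold higher (log2 fold change 1.74, SE 0.16, adjusted p = 1.55e-09). For both, every medulla library lay above every cortex library, and the same was so in dehydrated and rehydrated camels. ACSL4 (a long-chain synthetase that favours arachidonic acid; ENSCDRG00005016247, chromosome X, 81495057-81563846, plus strand) was 7.4, 6.84, 1.77, 1.92 and 2.32 CPM in control cortex and 20.3, 36.7, 14.7, 27.8 and 26.3 CPM in control medulla, without overlap and 6.08-fold higher (log2 fold change 2.6, SE 0.41, adjusted p = 6.03e-06). In dehydrated and rehydrated camels ACSL4 was higher by 3.16 and 2.33 on the log2 scale.

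FABP3 (log2 fold change 1.43), ACSS1 (0.94), ACSS2 (0.64) and ALDH18A1 (0.66) were the other genes higher in medulla of control camels. FABP3, ACSS1 and ALDH18A1 were so in every condition, and ACSS2 did not pass in dehydrated camels (log2 fold change 0.17, SE 0.19, adjusted p = 0.446). FABP5 passed in dehydrated camels alone (log2 fold change 1.08, SE 0.29, adjusted p = 0.00172), and its interaction was 1.02 with an adjusted p of 0.518, so that difference between conditions did not pass. The aldehyde dehydrogenases split: ALDH1A2, ALDH1A3 and ALDH18A1 were higher in medulla, ALDH4A1 (-1.42) and ALDH16A1 (-1.34) lower, and ALDH5A1, which breaks down succinic semialdehyde, did not pass (-0.19, 95% interval -0.82 to 0.43).

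**Figure D4:**
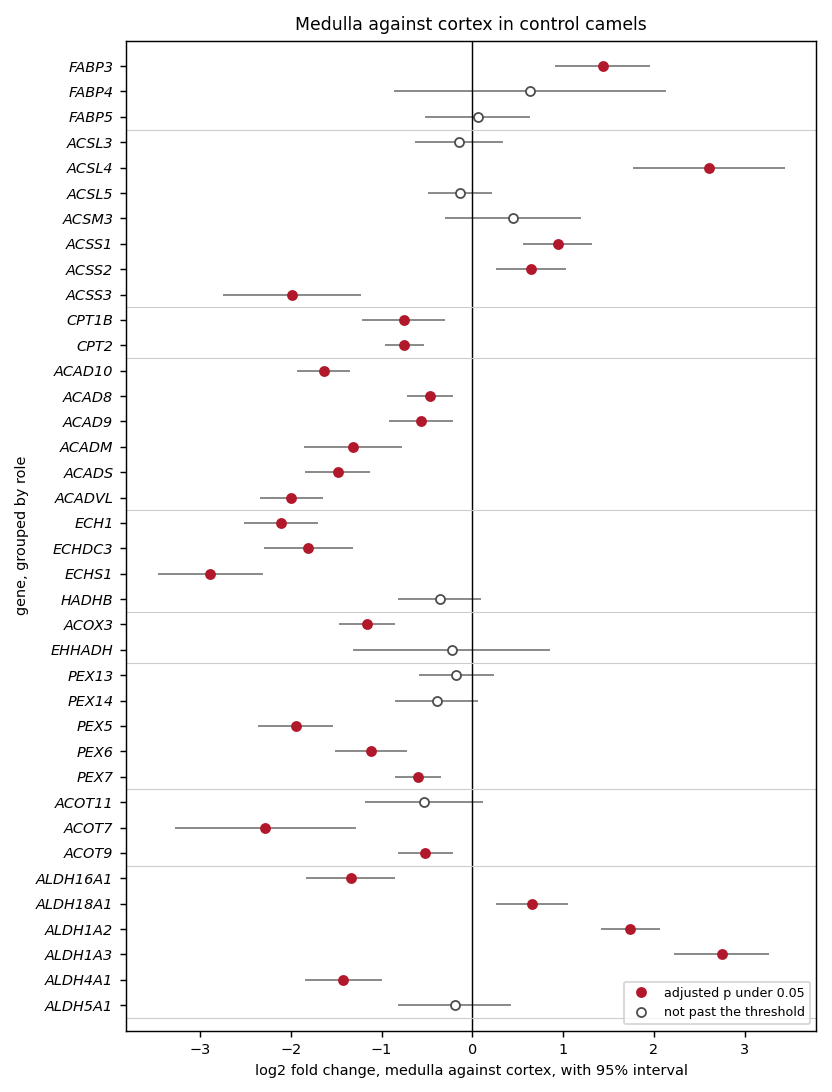
Log2 fold change of medulla against cortex in control camels with its 95% interval for 38 tested genes, grouped by role; filled points passed an adjusted p of 0.05. The acyl-CoA dehydrogenases lie to the left of 0, and ALDH1A3, at 2.74, and ACSL4, at 2.6, lie furthest to the right.

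Other genes of these pathways were taken from lists of 108 symbols, of which 23 could be matched to a tested gene; most camel identifiers had no symbol in the sources used here, and the symbols come from the study's own lists, so the 23 are not a neutral sample. In cortex 1 was higher and 3 were lower after dehydration, and in medulla 1 was higher and 5 were lower, against 1.27% higher and 1.17% lower in cortex and 0.527% and 1.16% in medulla over all tested genes. The median log2 fold change of the 23 in dehydration against control was -0.33 in cortex and -0.21 in medulla, against 0.00 and 0.01 over all tested genes. In rehydration against dehydration 3 were higher and 1 was lower in cortex (1.07% and 1.24% of all tested genes), and 1 was higher and 1 lower in medulla (2.24% and 1.43%). Rehydration against control gave 0 in cortex (0.0845% changed) and 1 higher and 1 lower in medulla (0.611% and 0.202%). ACSF2, a mitochondrial medium-chain acyl-CoA synthetase, fell in cortex (log2 fold change -0.74, SE 0.15, adjusted p = 0.00571) and in medulla (log2 fold change -0.71, SE 0.15, adjusted p = 0.00874). DECR1, a reductase for unsaturated chains in mitochondria, fell in cortex (log2 fold change -0.66, SE 0.18, adjusted p = 0.0392).

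Of 4 matched genes of fatty acid synthesis, 1 was lower after dehydration in cortex and 3 in medulla (1.17% and 1.16% of all tested genes), and ACACA passed in neither. SCD, the stearoyl-CoA desaturase, fell in cortex (log2 fold change -2.31, SE 0.31, adjusted p = 0.000113) and medulla (log2 fold change -2.07, SE 0.31, adjusted p = 0.000213) and rose again from dehydration to rehydration by 1.38 and 1.28 on the log2 scale (adjusted p = 0.0129 and 0.0167). ELOVL6, an elongase, and ACLY, which makes cytosolic acetyl-CoA from citrate, fell in medulla (log2 fold change -1.22, SE 0.29, adjusted p = 0.0252 for the former and log2 fold change -0.58, SE 0.15, adjusted p = 0.0391 for the latter). ANGPTL4, a target of the PPAR nuclear receptors that inhibits lipoprotein lipase, rose in cortex (log2 fold change 2.74, SE 0.66, adjusted p = 0.0205) and medulla (log2 fold change 2.65, SE 0.55, adjusted p = 0.00861) and was above control in rehydrated medulla (log2 fold change 2.80, SE 0.55, adjusted p = 0.0215). The rehydrated medulla libraries of ANGPTL4 were widely spread, at 12.4 to 225 CPM, and overlapped with the controls at 2.92 to 26.1 CPM. PPARD, one of those receptors, fell in medulla (log2 fold change -0.50, SE 0.12, adjusted p = 0.0247).

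After rehydration, against dehydrated camels, CRAT, a carnitine acetyltransferase (log2 fold change 0.88, SE 0.19, adjusted p = 0.0117), and HACL1, a peroxisomal lyase of alpha-oxidation (log2 fold change 0.77, SE 0.17, adjusted p = 0.0146), rose in cortex, and PPARG fell (log2 fold change -1.01, SE 0.26, adjusted p = 0.033). In medulla NUDT19, a peroxisomal coenzyme A hydrolase, fell (log2 fold change -0.43, SE 0.12, adjusted p = 0.0442), and against control ETFA, an electron transfer flavoprotein subunit that takes electrons from the acyl-CoA dehydrogenases, was lower in rehydrated medulla (log2 fold change -0.51, SE 0.12, adjusted p = 0.0454). Between the tissues, 13 of the 23 were lower and 5 higher in medulla of control camels (28.6% and 32.2% of all tested genes), and all 6 matched genes of mitochondrial beta-oxidation were lower in each condition.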

How the data were processed

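The authors deposited 1 table of counts of read pairs per gene for 30 libraries, with the summed exon length and position of each gene. Reads from poly-A selected libraries were trimmed with BBDuk and counted on the reverse strand with featureCounts on CamDro2 and Ensembl 100; the study's methods name STAR as the aligner, while the file header points to Rsubread. DESeq2 1.31.18 is named in the submitters' processing notes. No columns of the authors' own comparisons were used.

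Genes with low counts were dropped by filterByExpr at a minimum of 10 and a total of 15. edgeR 4.0.16 (R 4.3.3) was then used with TMM scaling for 1 quasi-likelihood fit of 30 libraries in 6 groups, and Benjamini-Hochberg adjustment over 15376 genes at 0.05. CPM are counts scaled by TMM library sizes. The method was tested on simulated data. The members and lists were chosen with earlier results of these data known; symbols come from the study's supplementary tables, some of them shortened in the copy used. Values of every library are given for genes called between conditions and for the 3 highest and 3 lowest medulla against cortex in controls. Alternatives were DESeq2 1.42.0, RLE size factors, no filter, the libraries of a tissue alone, a replicate block, each library left out and, chosen after seeing the data, edgeR's earlier quasi-likelihood method.

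The main fit took no account of the animal, so tests between tissues and of the interaction treated cortex and medulla libraries as independent. The individual that the labels give entered only in the replicate block. By that pairing, correlations of the libraries' deviations from their group means ran from -0.0787 to 0.336 in control camels. They ran from -0.139 to 0.25 in dehydrated and -0.42 to 0.411 in rehydrated camels. For rehydrated camels the sample codes give another pairing, of medulla replicates 2 to 5 with cortex replicates 1 to 4, whose correlations were 0.543, 0.497, -0.0284 and 0.393, so which libraries share an animal is not settled there. By those codes medulla replicate 1 and cortex replicate 5 of the rehydrated camels have no partner, so it is also not settled that each rehydrated animal gave both tissues. Counts and medians cover all tested members, of which 1 is not reported here by name. No sequences are shown, as no genome of this build was used here. P-values rest on 5 animals per group, and limits for a count of 0 cover counting error alone.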

Additional observations from a re-analysis of the deposited data

Results flagged for a closer look

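In 8 of 102 groups of 5 libraries (7.84%), over 17 genes, 1 library stood far from the other 4 by Dixon's test, where chance alone marks about 1 group in 20. In cortex of control camels, ACOT7 was 61.3 CPM in replicate 4 and 18.9 to 27.4 CPM in the others, and CPT2 was 100 CPM in replicate 3 and 142 to 149.8 CPM in the others. In dehydrated cortex, ACAD10 was 268 CPM in replicate 4 against 181 to 203 CPM, and in replicate 3 ACOT11 was 5.73 CPM against 2.71 to 3.55 CPM and ACSS1 was 170 CPM against 123 to 136 CPM. In dehydrated medulla, ACOT11 was 2.49 CPM in replicate 2 against 0.687 to 1.18 CPM, and ACSS1 was 114 CPM in replicate 1 against 194 to 222 CPM. In rehydrated medulla, ACADS was 279 CPM in replicate 2 against 373 to 404 CPM.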

How the results depend on the processing

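Direction was checked for the genes called between conditions and for the 3 highest and 3 lowest medulla against cortex in controls. No value of these changed direction under any alternative run, and the other genes were not checked. Of the values for these genes under alternatives, 258 kept their side of the threshold and 104 lost it. Every loss fell on a call between conditions, as the results of medulla against cortex kept their side in each run. The number of the 39 genes called in dehydrated against control cortex was 2, and 4 with DESeq2; in rehydrated against dehydrated cortex it was 4, and 2 with cortex fitted alone and 6 with DESeq2; in dehydrated against control medulla it was 5, and 1 with medulla fitted alone and 7 with DESeq2. In rehydrated against control medulla it was 1, and 0 with RLE size factors, with the earlier quasi-likelihood method and with medulla fitted alone, and 2 with DESeq2. In rehydrated against dehydrated medulla it was 5, and 8 with DESeq2, and for the difference between tissues in the dehydration response it was 0, and 1 with DESeq2. With each library left out in turn, the counts ran from 0 to 2 (dehydration against control), 0 to 0 (rehydration against control) and 0 to 4 (rehydration against dehydration) in cortex, 2 to 5, 0 to 3 and 1 to 6 in medulla, 27 to 29, 25 to 28 and 25 to 29 between tissues in control, dehydrated and rehydrated camels, and 0 to 0 for both interactions. Between conditions the animals share only a replicate number, with correlations of deviations from -0.392 to 0.472. With the replicate block the counts were 1, 0 and 2 in cortex and 0, 0 and 0 in medulla, in the same order, and 27, 25 and 27 between tissues, the last with the pairing by label. Counts were low for FABP6, for FABP4 (3 to 73 read pairs in cortex libraries) and for ACOT11 (16 to 121 over all libraries), and the biological coefficient of variation fitted over all tested genes was about 34%.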
